A study of Mus musculus with 2 samples.

Results

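The Sfmbt2 cluster is a dense run of rodent miRNA genes that lies within a single intron of the gene Sfmbt2 on mouse chromosome 2. Its members were taken by position: every gene in the deposited count tables that GENCODE annotates as a miRNA gene on the plus strand in a window that holds Sfmbt2 (chr2:10370510-10595253 of the mm10 assembly) and reaches less than 1 kb past either end. That gave 107 of the 1973 listed miRNA genes. By name, 14 belonged to the Mir467 family, 20 to Mir669, 20 to Mir466 and 5 to Mir297, and 48 carried only a provisional Gm symbol. The annotation places 119 miRNA genes in the window, and the other 12 (9 named Mir669a and 3 named Mir466) are not analysed here.

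The libraries were microRNA-seq of liver from mouse embryos of strain B6NCrl at embryonic day 12.5, with both sexes pooled. There was a single group with 2 replicates, made from 120 embryos (replicate 1) and 88 embryos (replicate 2), so no treatment, genotype or time was compared. The labels call the pools biological replicates but give both the same donor identifier, so the SD between them may in part be technical. Whole embryonic livers hold several cell types, and in such bulk RNA fewer cells of a type and less RNA per cell cannot be told apart.

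A miRNA gene is transcribed as a hairpin that is cut down to a short mature RNA, and the seed near the 5′ end of that RNA guides pairing with target transcripts. Sfmbt2 encodes a Polycomb-group protein, is expressed from the paternal allele in extraembryonic tissue, and is known for its role in trophoblast and placenta. The miRNA genes of its intron are found in mouse and rat, arose by repeated local duplication, and many of their hairpins are therefore close copies of each other.

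None of the 107 members (0 of 107) matched an entry in the RefSeq sequence table used here (GRCm38.p6). The table held 8 mature sequences of genes that share a family name with the cluster but lie on other chromosomes. They are shown because they display the simple sequence character behind the family names, with the seed, bases 2 to 8 from the 5′ end, in capitals.
mmu-miR-466q: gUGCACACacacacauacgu
mmu-miR-466k: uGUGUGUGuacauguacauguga
mmu-miR-669n: aUUUGUGUguggaugugugu
mmu-miR-467g: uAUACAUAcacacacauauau
mmu-miR-467h: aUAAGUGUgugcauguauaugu
mmu-miR-466j: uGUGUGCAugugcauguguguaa
mmu-miR-467f: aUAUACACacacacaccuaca
mmu-miR-466i-3p: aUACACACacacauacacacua
On this assembly mmu-miR-466q lies at chr3:28419988-28420007 and mmu-miR-467h at chr9:115381898-115381919, both on the plus strand. The 8 seeds were all different, even within a family name. In 4 of the 8, from Mir466k, Mir669n, Mir467h and Mir466j, UG or GU dinucleotides outnumbered AC or CA, from 47.6% of the dinucleotides of mmu-miR-467h to 68.4% of those of mmu-miR-669n. In the other 4 the reverse held, and AC or CA made up from 50% of the dinucleotides of mmu-miR-467g to 71.4% of those of mmu-miR-466i-3p. The hairpins of the cluster had a related composition. The median member was 101 bases long with 38.3% GC and 23.4% TG or GT dinucleotides, against 89 bases, 52.0% and 15.3% over 1787 listed genes outside the cluster that could be placed on the annotation.

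All 107 members lay in a single intron of Sfmbt2 (ENSMUSG00000061186.15, plus strand), on the strand of the gene. The intron spans 62472 bases, chr2:10461473-10523944, between exons 10 and 11 of transcript Sfmbt2-201. The members ran from 10465287 to 10518279, a span of 53.0 kb (52.993 kb), and no member overlapped an exon of Sfmbt2. Neighbouring hairpins started a median of 0.304 kb apart. Of the 1894 listed genes that could be placed, the nearest before the window, Gm23963, was 1129 kb away with 0 counts in both libraries, and the nearest after the window, Mir511, was 3665 kb away at 15.2 ± 1.48 CPM (SD, n = 2).

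The tables gave 3447858 counts on the sense strand of miRNA genes in replicate 1 and 3534816 in replicate 2, out of 11057424 and 11013976 reads. Counts were expressed per 1000000 such sense counts (CPM). A sequenced small RNA is read whole, so CPM was not divided by hairpin length, and levels of different genes are compared on this scale. A gene without counts could still have a level, in reads aligned to 1 place, of up to 0.870 CPM in replicate 1 and 0.849 CPM in replicate 2. This is the value of 3 counts. Intervals and limits of this kind cover counting error only, since the reads carry no molecular identifiers. A read aligned to 1 place was entered on a gene or on a line that names no gene. Reads aligned to several places had a line of their own. That line held 3180324 and 3427344 reads, 40.8% and 41.9% of all aligned reads. It held 100 and 109 times as many reads as the whole cluster did counts. How many of those reads came from the cluster was not tested, so each member's value is its uniquely placed part.

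The libraries carried the miRNAs of fetal liver. The 4 hepatocyte genes (Mir122, Mir192, Mir194-1 and Mir194-2) summed to 63685 and 49809 CPM in replicates 1 and 2, and 3 of them reached 10 CPM in both. The 3 erythroid genes (Mir144, Mir451a and Mir486) summed to 16926 and 37430 CPM, and all 3 reached 10 CPM in both. Markers of other cells were also present: Mir126a of endothelium was at 68816 and 68165 CPM, and 4 leukocyte genes summed to 7188 and 5831 CPM with Mir142b at 0. Because the cluster is known from trophoblast, the 7 listed genes of the Mir290 to Mir295 cluster of pluripotent cells and trophoblast were read beside it. They summed to 326 and 242 CPM, and 5 of them reached 10 CPM in both libraries. Of 5 neural genes 4 were at 0, all 3 copies of Mir124a among them, and the neural genes summed to 1.74 and 1.13 CPM. Of 4 muscle genes 3 were at 0, and the fourth was detected, so that muscle genes summed to 129 and 288 CPM. What share of the cluster's counts came from each cell type was not tested.

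Members of the Sfmbt2 cluster held 31750 counts in replicate 1 and 31565 in replicate 2. That was 0.921% of the sense counts on miRNA genes in replicate 1 (95% exact Clopper-Pearson interval 0.911% to 0.931%) and 0.893% in replicate 2 (0.883% to 0.903%), or 0.907% ± 0.0197 (SD, n = 2). No member had a count on the opposite strand. Almost all of this came from few genes. A total of 33 members had at least 1 count over both libraries and 74 had none; 23 had counts in both libraries and 10 in 1 library only. The 33 came to 30.8% of the members, against 38.2% over all listed genes. Only 8 members reached 10 CPM in both libraries, or 7.48%, against 15.3% over all listed genes. The median member, like the median listed gene, was at 0 CPM.

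The imprinted miRNA cluster of the Dlk1-Dio3 domain on chromosome 12, which is also large and arose by duplication, gave a different picture in uniquely placed reads of the same libraries. Of its 58 listed genes 53 had counts and 44 were detected at 10 CPM, with a median of 499 CPM, and it held 17.8% ± 0.207 (SD, n = 2) of the counts. Listed miRNA genes in same-strand introns of other protein-coding genes had counts in 302 of 547 cases and were detected in 96. These are descriptions of uniquely placed reads, with no test of the difference. In the Sfmbt2 cluster 38 members had a hairpin identical to that of another gene, which limits their unique counts. How many hairpins of the other lists are such copies was not examined.

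The level fell off steeply from member to member, as the plot of CPM for the members with at least 10 counts shows. The highest member alone held 36.1% ± 1.99 (SD, n = 2) of the cluster's counts, the first 3 held 82.1% ± 0.185, the first 5 held 96.8% ± 0.226 and the first 8 held 99.6% ± 0.0620. The 8 detected members ranged from 40.2 CPM upward in either library, and the next one had a mean of 8.18 CPM. Below that, 25 members had 1 to 99 counts over both libraries, and 18 of these had fewer than 10.

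**Figure D1:**
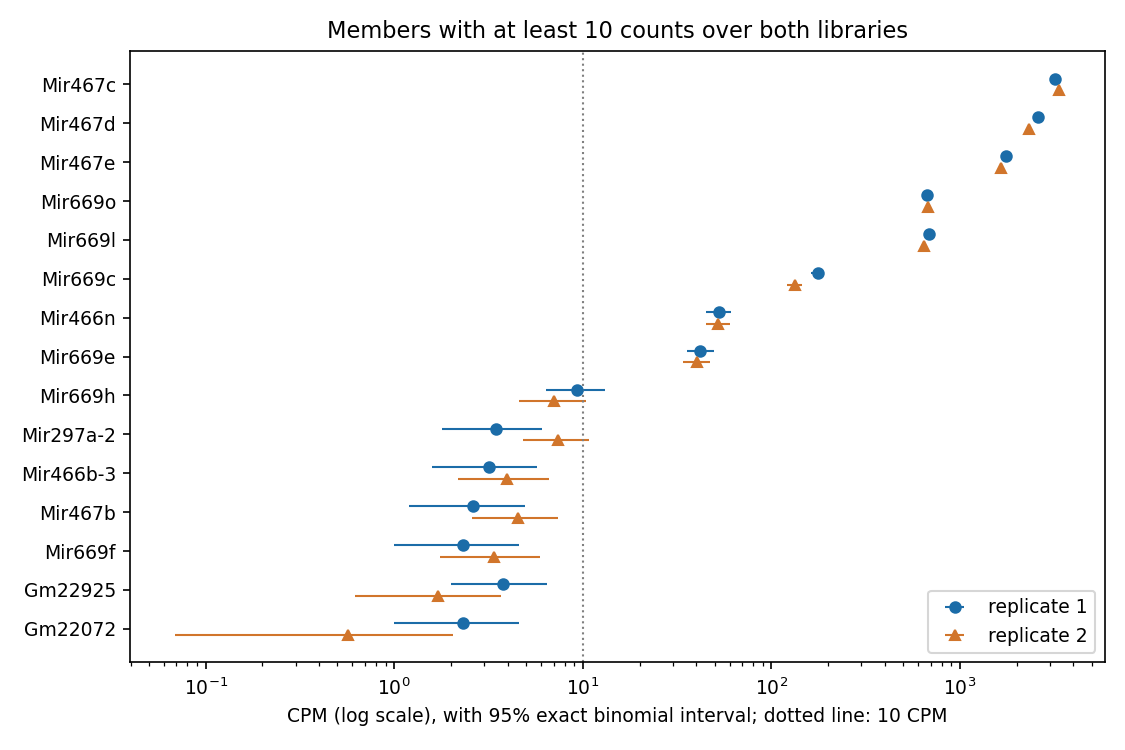
CPM on a log scale (x axis) of the 15 members with at least 10 counts over both libraries, with circles for replicate 1, triangles for replicate 2, bars for the 95% exact binomial interval of each library and a dotted line at 10 CPM. The first 8 members lie right of the line in both libraries, from Mir467c at 3199 and 3353 CPM down to Mir669e at 42.1 and 40.2 CPM.

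The Mir467 family led the cluster. Its 14 members held 26031 and 25970 counts, or 82.1% ± 0.203 (SD, n = 2) of the cluster, and this came from 3 of them. Mir467c (ENSMUSG00000077049.2, chr2:10473931-10474027) was at 3199 CPM in replicate 1 and 3353 CPM in replicate 2, the highest of the cluster and rank 60 of all listed genes. Mir467d (ENSMUSG00000077021.2, chr2:10507630-10507714) was at 2584 and 2337 CPM, rank 67. Mir467e (ENSMUSG00000076948.2, chr2:10505721-10505807) was at 1763 and 1650 CPM, rank 84. The order of these 3 in uniquely placed reads was the same in both libraries: Mir467c was 1.24 and 1.43 times Mir467d, and Mir467d was 1.47 and 1.42 times Mir467e. How many reads of each gene aligned to several places was not tested, so the order of their full levels is not known. The hairpins are close relatives, with Mir467c 95.3% identical to Mir467d, yet Mir467c starts 8.64 kb from the first member and the other pair, Mir467e and Mir467d, starts 40.4 and 42.3 kb from it.

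The remaining Mir467 members were near or at 0 in uniquely placed reads. Mir467b, whose mature RNA has been studied as a repressor of lipoprotein lipase in macrophages, had 9 and 16 counts, or 2.61 and 4.53 CPM, and its hairpin is 98.6% identical to Mir467a-6. Of the 10 copies of Mir467a, 9 had no count in either library. Mir467a-1 had 4 and 5 counts. Every 22-base stretch of the 10 Mir467a hairpins also occurs in another annotated miRNA gene, so their uniquely placed counts do not give their level.

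The Mir669 family came next with 5476 and 5325 counts, or 17.1% ± 0.267 (SD, n = 2) of the cluster, and 4 of its 20 members were detected. Mir669o (chr2:10514300-10514395) was at 671 and 676 CPM and Mir669l (chr2:10468971-10469068) at 687 and 645 CPM. These neighbours in the order changed places between the libraries, so they did not differ beyond their spread, although the genes lie at opposite ends of the cluster. Mir669c (chr2:10509296-10509404) was at 176 and 134 CPM and Mir669e (chr2:10467495-10467613) at 42.1 and 40.2 CPM. Mir669h, the last member by position, had 32 and 25 counts, or 9.28 and 7.07 CPM, just under the detection level. Mir669f had 8 and 12 counts and Mir669a-3 had 4 and 2. The other 13 members were at 0.

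The Mir466 family was nearly silent by unique counts, with 201 and 217 counts or 0.660% ± 0.0385 (SD, n = 2) of the cluster over 20 members. A single gene, Mir466n (chr2:10513741-10513834), held most of them at 52.5 and 52.1 CPM. It was above Mir669e in both libraries, by 1.25 and 1.30 times, while the counting intervals of the pair overlapped within each library (45.1 to 60.7 CPM against 35.5 to 49.5 CPM in replicate 1). Mir466b-3 had 11 and 14 counts. Mir466l, whose mature RNA has been described as a stabiliser of Il10 mRNA, had 1 and 5 counts, and Mir466h had 6 and 3.

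The Mir297 family and the genes with Gm symbols contributed little. The 5 Mir297 members held 16 and 29 counts, most of them on Mir297a-2 with 12 and 26. The 48 Gm members held 26 and 24 counts, of which Gm22925 had 13 and 6 and Gm22072, the first member by position, had 8 and 2. Of the Gm hairpins, 39 were at least 90% identical to another miRNA hairpin of the window and 21 were identical to one. From Mir669h down to Gm22072, the ranges of neighbours in the order of the 15 highest members overlapped, so their order is not resolved.

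Genes with the same family names outside the window had next to no uniquely placed reads. Of the 10 listed, Mir466q had 1 count in replicate 1 and 0 in replicate 2. The other 9 (Mir466k, Mir669n, Mir467g, Mir297-1, Mir467h, Mir466j, Mir467f, Mir466i and Mir466f-4) were at 0 in both libraries. In uniquely placed reads a level of up to 0.870 and 0.849 CPM is therefore possible. How many reads of these genes aligned to several places was not tested. The mature sequences printed above therefore belong to genes with at most 1 unique count in these livers.

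Counts sat at both ends of the cluster and hardly any in the middle, as the plot of CPM by position shows. The middle is an array in which Mir467a copies recur every 2.46 kb in the median, from 2.41 to 4.88 kb. Bounded by the first and the last Mir467a gene, it spans 27.0 kb with 55 members (chr2:10476346-10503355). The 20 members before the array held 13576 and 14324 counts, or 44.1% ± 1.85 (SD, n = 2) of the cluster, with 3 genes of at least 100 counts. The 32 members after it held 18160 and 17216 counts, or 55.9% ± 1.88, with 5 such genes. The array held 14 and 25 counts, or 0.0616% ± 0.0248, on 4 of its members, and no gene in it had more than 25 counts over both libraries.

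**Figure D2:**
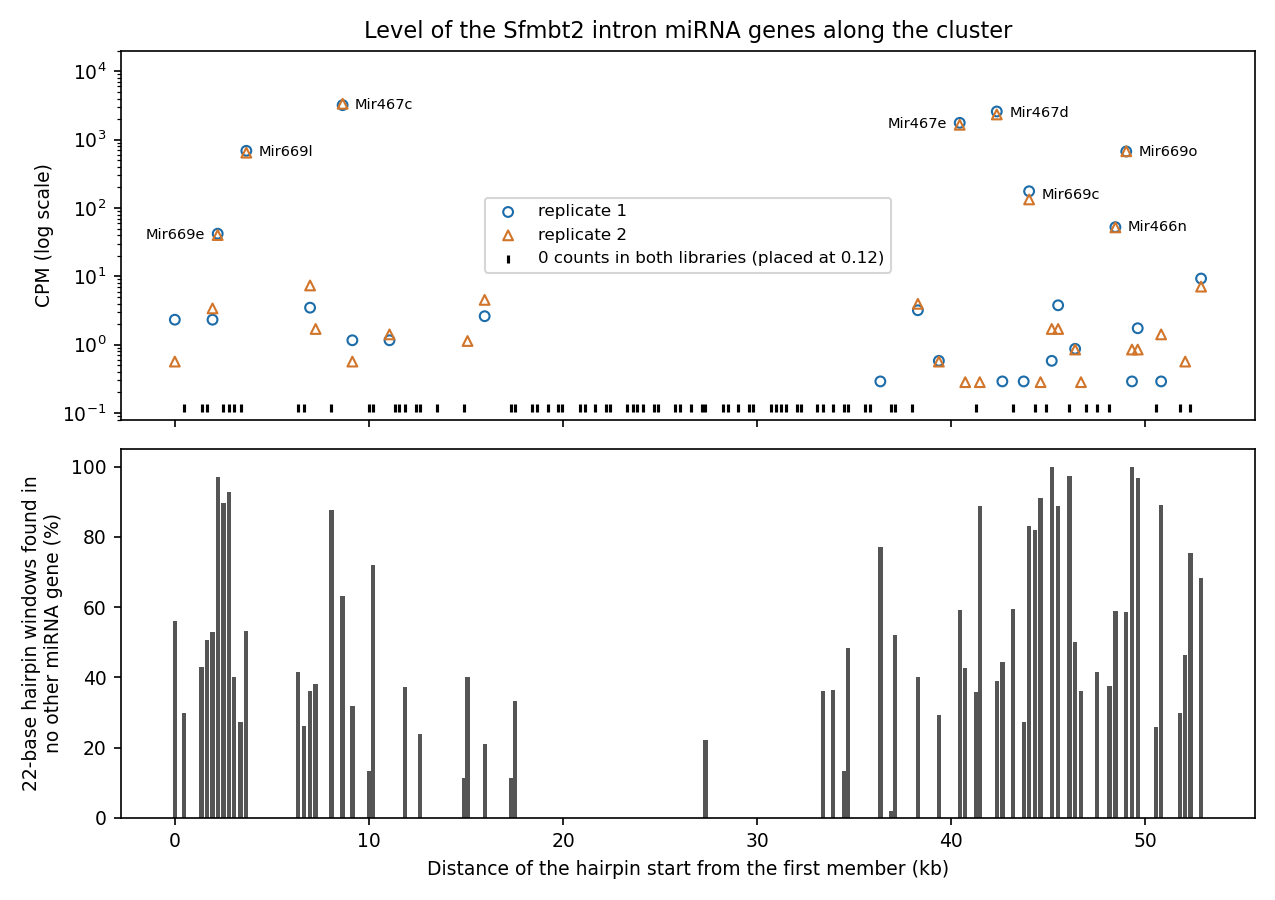
Top, CPM on a log scale of each member against the distance of its hairpin start from the first member in kb, with circles for replicate 1, triangles for replicate 2 and ticks at the bottom for the 74 members with 0 counts in both; bottom, the percentage of each hairpin's 22-base windows found in no other annotated miRNA gene. The 8 named members lie at the flanks, 3 before and 5 after the array, and most members of the array have neither counts nor a unique window.

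Sequence identity followed the same map. Each hairpin was divided into all its windows of 22 bases, close to the length of a mature miRNA, and a window was called unique when it occurs in no other annotated miRNA gene. In the array 40 of 55 members had no unique window and 37 were identical to another hairpin. The median share of unique windows was 0% there, 46.8% before the array and 54.3% after it. Before the array every member had a unique window, and after it 30 of 32 had one.

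Over the whole cluster 105 of 107 members shared a run of 20 bases with another annotated miRNA gene, against 824 of 1787 outside the cluster (46.1%). By number of members, sharing within the window was the more common: 104 members shared such a run with another gene of the window. With a gene elsewhere 32 members shared one, and a member can be in both groups. The 2 members that shared none, Gm22239 and Mir466g, had 8 and 4 counts over both libraries.

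Members with and without counts differed in this respect. The counting rule sets part of this difference in advance, since a hairpin without a unique stretch can hardly receive a uniquely placed read. All 8 members with at least 100 counts had unique windows, with a median share of 59.0% and a range from 39.1% in Mir467d to 96.9% in Mir669e. Of the 33 members with any count, 32 had a unique window and none was identical to another hairpin. Of the 74 members at 0, 41 had no unique window and 38 were identical to another hairpin. Reads aligned to several places were not entered on any gene, and how many of them belong to these 41 members was not tested, so their 0 is a statement on uniquely placed reads.

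**Figure D3:**
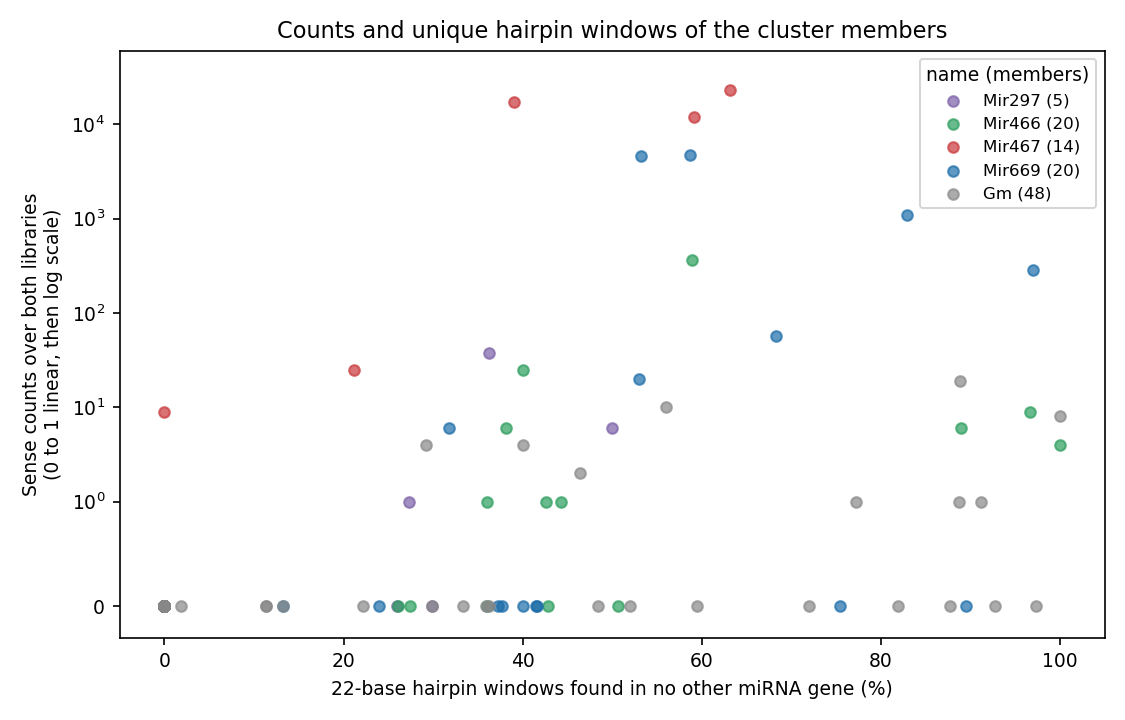
Sense counts over both libraries (y axis, linear from 0 to 1 and then log scale) against the percentage of 22-base hairpin windows found in no other annotated miRNA gene (x axis), 1 point per member, coloured by family name. The 41 members at 0 counts with 0% unique windows overlap at the lower left, the 8 members with at least 100 counts lie between 39.1% and 96.9%, and 33 members with unique windows are at 0 counts.

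Some members at 0 counts had hairpins that are unique in part. Of the 74 members at 0, 33 had at least 1 unique window, and in 5 of these at least 80% of the windows were unique. That number depended on the window: it was 2 with windows of 18 bases. It was 4 when transcripts of all genes that do not overlap the cluster were searched as well. All 74 shared a run of 20 bases with another annotated miRNA gene, so none had a hairpin that is unique throughout. The genome itself was not searched, so a window called unique may recur elsewhere in it. The place of the mature RNA within the hairpin was not used either. These 5, named after their values were seen, were Gm23542 (97.3%), Gm23578 (92.8%), Mir669b (89.5%), Gm26073 (87.7%) and Gm24342 (81.9%). Some of these lay directly beside a detected member. Gm26073, which ends at 10473477, was the last listed member before Mir467c, which starts at 10473931 and had 11031 and 11853 counts. In 2 other places such a gene directly followed a detected member. Mir669b starts 176 bases after the end of Mir669e, and 3 counts per library were taken as its limit. In uniquely placed reads the measured level of Mir669e was 48.3 times that limit in replicate 1 and 47.3 times in replicate 2. Gm24342 starts 179 bases after Mir669c, whose measured level was 202 and 157 times the same limit in uniquely placed reads. These ratios leave out the counting error of the higher gene. They also do not cover reads aligned to several places, and both Mir669b and Gm24342 share a run of 20 bases with other genes.

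The replicates were compared gene by gene to see how far the member levels are reproducible. Of the 15 members with at least 10 counts, 3 differed by the two-sided exact binomial test with Benjamini-Hochberg adjustment over the 464 listed genes tested. That is 3 of 15 members, beside 40.3% of the listed genes tested. The test compares the libraries on counting error alone and says nothing of a condition. Mir467c had its higher level in replicate 2, at a log2 ratio of 0.12 (95% exact interval 0.08 to 0.16, adjusted p = 7.87e-10). Mir467d was lower in replicate 2, with a log2 ratio of -0.09 (exact interval -0.13 to -0.05, adjusted p = 0.00016). Mir669c was also lower, with a log2 ratio of -0.34 (exact interval -0.52 to -0.17, adjusted p = 0.000365). One member thus passed in the upward direction and 2 in the downward direction, beside 22% and 18.3% of all genes tested.

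The median log2 ratio over the 15 members was -0.01, against 0.02 over all genes tested, and the median absolute log2 ratio was 0.33 against 0.26. That order depended on members with few counts. With a filter of 100 counts, which kept 8 members and 289 genes, the median absolute log2 ratio was 0.06 against 0.18. Mir297a-2 had the largest upward ratio, 1.10 on the log2 scale from 12 and 26 counts, and missed the threshold (adjusted p = 0.0563 by the exact binomial test). The largest downward ratio was that of Gm22072, -1.75 from 8 and 2 counts, followed by Gm22925 at -1.04 from 13 and 6 counts, and neither passed the exact test (adjusted p = 0.209 and 0.288). With the spread between libraries estimated over all genes in edgeR, a coefficient of variation of 0.162, no member passed the negative binomial test, 0 also had an unadjusted p under 0.05, and 1.08% of all genes passed. With that coefficient set to 0.1, again 0 members passed and 0 had an unadjusted p under 0.05, beside 2.59% of all genes. With library sizes taken as total sense counts, Mir467e passed as well, giving 1 member higher and 3 lower, and the split over all genes turned from 102 higher and 85 lower to 77 higher and 101 lower.

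**Figure D4:**
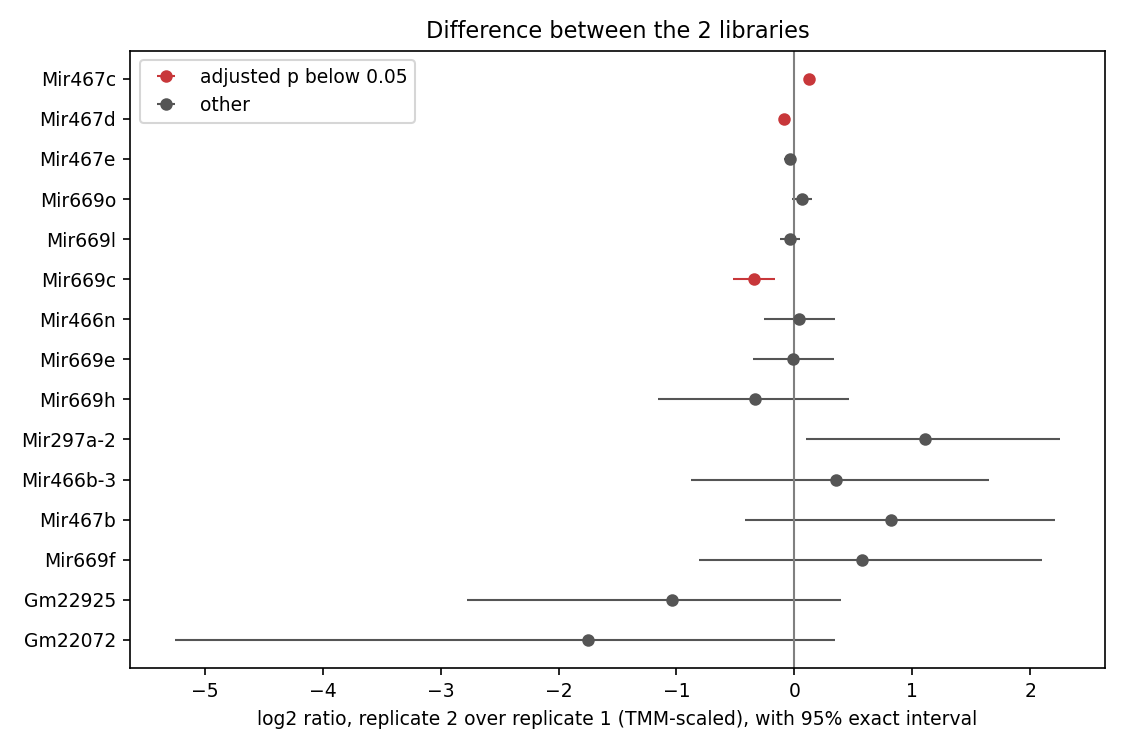
Log2 ratio of replicate 2 over replicate 1 with TMM-scaled library sizes (x axis) for the 15 members with at least 10 counts, with bars for the 95% exact interval and red points for an adjusted p below 0.05. The 3 red points are Mir467c at 0.12, Mir467d at -0.09 and Mir669c at -0.34, and the intervals widen downward as counts fall.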

How the data were processed

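MicroRNA-seq of 2 pools of embryonic mouse liver was used. The authors deposited raw read counts per miRNA gene for each library, with columns for both strands, the sense strand and the opposite strand. Per the file lists deposited with the tables, the assembly was mm10 and the gene models were GENCODE M4. The names of the aligner and counter were not given in the sources used here.

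Sense counts were used. Lines that name no gene entered neither library sizes nor tests: in replicates 1 and 2 they held 29.4% and 25.8% of reads as unmapped, 28.8% and 31.1% as aligned to several places, and 10.6% and 11.0% as on no listed gene. Coordinates and hairpins came from GENCODE M21 on the same assembly, where 1894 of 1973 identifiers were found. The 79 others, with 3 sense counts in all, could not be placed. Mature sequences of the members were not used here, so uniqueness was judged from hairpin windows, a measure chosen after the counts were seen.

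CPM is counts per 1000000 sense counts, and detection meant 10 CPM or more in each library. The libraries were compared on 464 genes with at least 10 counts, with the exact binomial test and TMM-scaled library sizes from edgeR 4.0.16 (R 4.3.3), with Benjamini-Hochberg adjustment at 0.05. Log2 ratios have 0.5 counts added. P-values of the exact binomial test compare these 2 libraries on counting error alone and do not measure a spread between replicates. A difference between the libraries may be technical. Alternatives were total counts, DESeq2 1.42.0 size factors, negative binomial tests, other filters, both strands, other denominators and leaving out each replicate. The estimated coefficient of variation of the negative binomial test came from the same 2 libraries taken as 1 group. It therefore already contains the differences tested.

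Named genes were the 15 members with the most CPM, each family's highest member, members with at least 100 counts that passed the test, the nearest listed genes on either side, and family genes outside the window. The members and lists were chosen with earlier results of these data known.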

Additional observations from a re-analysis of the deposited data

How the results depend on the processing

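The cluster's share of 0.907% moved with the denominator. It was 0.820% with counts of both strands, 0.287% of all reads and 1.51% without the 10 most abundant genes, and it fell to 0.000171% when only the 2 members that share no 20 bases were kept. Of the 33 members with a count, 15 had at least 10 counts. At 1 CPM in place of 10 CPM, 15 members in place of 8 were detected. The 3 members that differed between the libraries by the exact binomial test became 0 with a negative binomial test, both at a coefficient of variation of 0.1 and at the estimated one, and 0 of 15 had an unadjusted p under 0.05 in either. The estimated coefficient came from the same 2 libraries, so it already contains the differences tested and few calls with it are no evidence of equal levels. Leaving out each replicate kept the share between 0.893% and 0.921%, the members with a count between 26 and 30, and the detected members at 8. The count of 65 members with a unique window was 65 also with windows of 18 bases and against transcripts of all genes that do not overlap the cluster. These alternatives were chosen after seeing the data. The members at 0 counts with at least 80% unique windows went from 5 to 2 and 4 under these. The planned count of members with a mature sequence of 1 genomic place, and its alternatives, were not run, since mature sequences of the members were not used here. No paired analysis was possible because there is a single group. Uniquely placed counts limit every level given for a member, and 1 library per side leaves no spread within a replicate.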

Other observations

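Mir467a-1 was the single member that had counts without any unique 22-base hairpin window: its hairpin had 0% unique windows, and it held 4 and 5 counts in replicates 1 and 2. Among the other hairpins of the window, Mir467a-9 matched it at 100% identity over the aligned bases and had 0 counts. Mir467a-9 is itself identical to 6 other hairpins, which match Mir467a-1 equally well. Among the 8 detected members, Mir669e shared no 20-base run with another gene of the window and shared one with 1 gene elsewhere, whereas Mir669o shared such a run with 56 genes of the window and still had 2313 and 2391 counts.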
